A study of Mus musculus with 38 samples.

Results

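Small nucleolar RNAs (snoRNAs) and the long transcripts that carry them or belong to the same non-coding classes were read out in sorted cells of the mouse bone marrow niche. Members were all genes of the deposited table whose symbol begins with Snord, Snora or Snhg, or is that of a numbered microRNA host gene, together with Gas5, Malat1, Neat1 and Meg3. Mir17hg and Snord69 were not included. These rules gave 64 of the 13260 genes of the table, made up of 30 box C/D snoRNAs, 17 box H/ACA snoRNAs, 12 snoRNA host transcripts, 2 microRNA hosts and 3 other long non-coding RNAs. The rule used no measured value, but the table it was applied to held only genes that passed the authors' filter on low counts.

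The study asked how myeloma changes gene expression in cells that line bone, using mice of the strain C57Bl/KaLwRijHsd that were 8 to 10 weeks old at inoculation. Healthy mice received PBS vehicle into a vein and myeloma-bearing mice received 1000000 5TGM1-GFP cells, which are 1 mouse myeloma line marked with green fluorescent protein (GFP), and all were killed on day 23. Each of the 38 libraries was made from polyadenylated RNA of 100 cells sorted from bone. Endothelial cells were sorted as CD31+, stromal progenitors as Sca1+ALCAM- and osteoprogenitors as ALCAM+Sca1-, each from healthy and from myeloma-bearing mice. GFP+ myeloma cells of the myeloma-bearing mice were sorted from the bone lining and from the central marrow. There were 5 libraries in each group except for the 4 of healthy osteoprogenitors and the 4 of osteoprogenitors from myeloma-bearing mice. Libraries are named by the replicate letter of their label, C, L, M, N and O for healthy mice and D, E, G, I and J for myeloma-bearing mice. The labels do not say that a letter marks 1 mouse across cell types, although the replicates of a group came from different mice, and p-values measure the spread between these libraries only.

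Each library held between 9735031 and 34883291 reads counted to genes. The lists of cell type markers followed the labels, since 8 of 8 endothelial, 6 of 8 stromal progenitor, 9 of 9 osteoprogenitor and 9 of 9 plasma cell and myeloma markers were highest in their own cell type. Neutrophil marker genes summed to 7273 RPKM, a read count scaled to gene length and library size, in stromal progenitor library L of healthy mice and to 8119 RPKM in stromal progenitor library E of myeloma-bearing mice, against medians of 83 and 118 RPKM in those groups. The table holds only 2 genes of the erythroid marker list, and they summed to at most 16.1 RPKM in any library. The macrophage and osteoclast list summed to between 31.9 and 903 RPKM, with the highest value in bone-lining myeloma library E.

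Box C/D snoRNAs guide methylation of ribose and box H/ACA snoRNAs guide the change of uridine to pseudouridine, mainly in ribosomal RNA. Most mammalian snoRNAs lie in introns of other genes, are released when the intron is processed, and carry no poly(A) tail of their own. Their hosts are often genes for ribosomal proteins and translation factors, or non-coding genes such as Gas5 and the Snhg genes whose spliced RNA is short-lived. The libraries were made from polyadenylated RNA, so whether a read inside a snoRNA came from the mature snoRNA, an unspliced host or another transcript cannot be told apart.

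By the GENCODE M21 annotation of GRCm38, 45 of the 47 snoRNAs lay inside a single gene of the same strand. Of these, 32 lay in protein-coding genes, 23 of them genes for ribosomal proteins, and 13 lay in genes annotated there as non-coding, 7 of them in hosts that are themselves among the 64 members. The 13 include Snora15 in Cct6a, a chaperonin subunit gene that RefSeq lists as protein-coding. Snord104 and Snora74a had no such host in that annotation. An annotated exon of the host was overlapped by 26 of the snoRNAs. The snoRNAs were short in the deposited table, between 45 and 198 bases with a median of 78. A single read of Snord49b in endothelial library I of myeloma-bearing mice, with 50-base reads, was worth 1.18 RPKM, so a handful of reads gave a sizeable value.

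The sequences below are the snoRNAs on which the results turn, read from the GRCm38 genome on the transcribed strand, with the GENCODE M21 positions. They are the snoRNA with the most reads (Snord104), 2 families that share a host (the 4 snoRNAs of Rpl13a and the 3 of 2410006H16Rik), Snord96a with the highest estimate in myeloma cells, and Snora78, with the lowest p in the test for a change that differed between cell types. Capitals mark the box C letters TGATGA and the last box D letters CTGA of the box C/D snoRNAs, and the letters ACA near the end of Snora78.
Snord104 (chr11:106500993-106501062, plus strand): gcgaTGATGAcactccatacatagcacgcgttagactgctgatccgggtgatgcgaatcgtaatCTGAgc
Snord32a (chr7:45127382-45127464, minus strand): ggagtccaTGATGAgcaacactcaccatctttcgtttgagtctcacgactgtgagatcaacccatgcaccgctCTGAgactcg
Snord33 (chr7:45126864-45126947, minus strand): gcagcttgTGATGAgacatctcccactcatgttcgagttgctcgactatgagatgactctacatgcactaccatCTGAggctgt
Snord34 (chr7:45126601-45126670, minus strand): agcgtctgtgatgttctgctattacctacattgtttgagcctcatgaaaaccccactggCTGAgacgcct
Snord35a (chr7:45126346-45126435, minus strand): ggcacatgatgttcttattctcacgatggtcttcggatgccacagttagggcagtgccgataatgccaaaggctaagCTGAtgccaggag
Snord49b (chr11:62603079-62603150, plus strand): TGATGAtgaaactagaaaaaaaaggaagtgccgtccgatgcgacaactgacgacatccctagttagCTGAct
Snord49a (chr11:62603450-62603521, plus strand): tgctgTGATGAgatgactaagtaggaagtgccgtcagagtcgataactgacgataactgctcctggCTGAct
Snord65 (chr11:62604515-62604586, plus strand): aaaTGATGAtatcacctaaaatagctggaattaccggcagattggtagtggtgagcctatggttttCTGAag
Snord96a (chr11:48802032-48802112, plus strand): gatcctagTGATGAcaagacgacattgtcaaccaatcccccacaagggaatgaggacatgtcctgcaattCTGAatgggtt
Snora78 (chr17:24719676-24719803, minus strand): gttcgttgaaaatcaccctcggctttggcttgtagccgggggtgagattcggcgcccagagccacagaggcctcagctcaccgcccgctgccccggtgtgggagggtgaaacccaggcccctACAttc

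The letters TGATGA were found on the transcribed strand of 18 of the 30 box C/D members (60%), in 0 of the 17 box H/ACA members and in 25.8% of the 1483 snoRNA genes of the annotation. Snord34 and Snord35a were among those without them. CTGA, which overlaps TGATGA where a C precedes it, was found in 30 of 30 box C/D members, in 9 of 17 box H/ACA members (52.9%) and in 79.5% of all annotated snoRNAs. ACA within the last 10 bases was found in 15 of 17 box H/ACA members (88.2%), in 2 of 30 box C/D members and in 47.2% of all annotated snoRNAs. Snora41, Snora33, Snora21, Snord58b, Snora81 and Snora65 each share 50 or more bases with another annotated snoRNA gene, so their reads are uncertain because reads with several equal positions were not counted.

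The first comparison is how often a snoRNA was seen at all. Reads of the snoRNAs were patchy in the niche cells and more regular in the myeloma cells. These are the snoRNAs that passed the authors' filter on low counts, which can favour those seen regularly in some groups. How far that filter set the shares and counts below was not tested. At least 1 read was found for 17% to 44.7% of the 47 snoRNAs in the libraries of healthy endothelial cells, with a median of 31.9%, and for 21.3% to 46.8% in the endothelial libraries of myeloma-bearing mice, with a median of 44.7%. Stromal progenitors held 25.5% to 57.4% in healthy and 34% to 44.7% in myeloma-bearing mice, both with a median of 36.2%. Osteoprogenitors held 27.7% to 63.8% in healthy and 31.9% to 68.1% in myeloma-bearing mice, with medians of 37.2% and 48.9%.

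Myeloma cells from the bone lining had reads for 61.7% to 87.2% of the snoRNAs, with a median of 74.5%, and those from the central marrow for 80.9% to 87.2%, with a median of 87.2%. Every central marrow library therefore lay above every niche library, while the bone-lining libraries overlapped the highest osteoprogenitor libraries. Over all 13260 genes, the share with at least 1 read ranged from 64.9% to 83.9% in the niche libraries and from 76.2% to 85.1% in the myeloma libraries. Only 3 to 6 snoRNAs had reads in every library of a niche group, against 18 in the bone-lining and 30 in the central marrow myeloma cells. The myeloma libraries were not the deeper ones, with 9735031 to 17972882 reads against 11991647 to 34883291 in the niche libraries. In libraries of 100 sorted cells, fewer cells with a transcript and less of it per cell cannot be told apart.

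**Figure D1:**
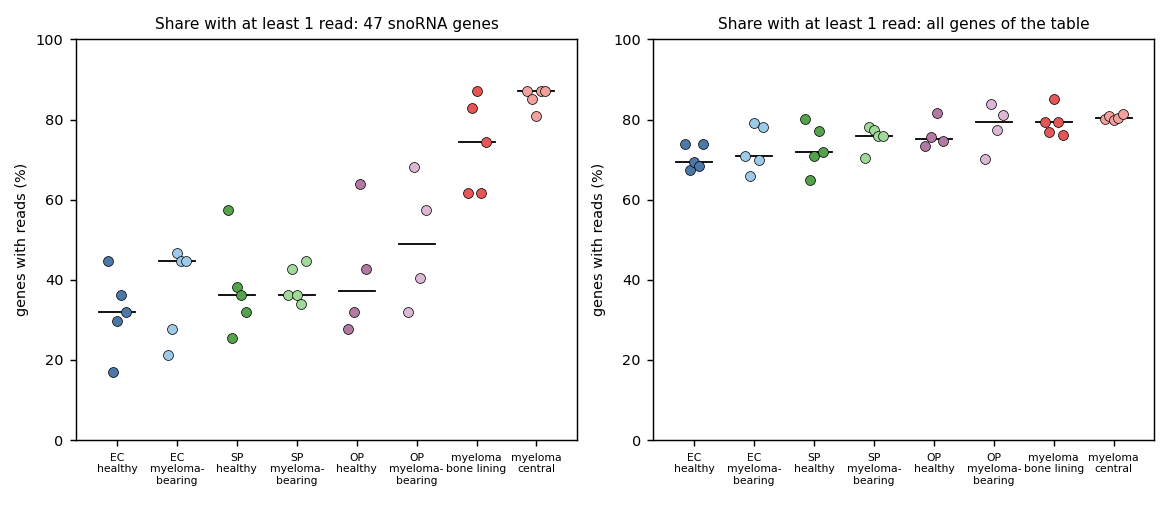
Share of snoRNAs (and of all genes) with at least 1 read, in percent, for each library of the 8 groups. The central marrow myeloma libraries sit between 80.9% and 87.2% for snoRNAs, above every niche library, while the shares of all genes overlap between niche and myeloma cells.

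The depth of the snoRNA signal followed a different order. All snoRNA reads together made up 160 to 271 reads per 1000000 counted reads in healthy endothelial cells, 81.4 to 209 in endothelial cells of myeloma-bearing mice, 44.9 to 94.3 in healthy stromal progenitors and 76.9 to 109 in healthy osteoprogenitors. In myeloma-bearing mice the stromal progenitors held 63.4 to 156 and the osteoprogenitors 83.1 to 129. The bone-lining myeloma cells held 131 to 211 and the central marrow cells 197 to 274 snoRNA reads per 1000000. The range of the bone-lining myeloma cells overlapped those of both endothelial groups and of the stromal progenitors of myeloma-bearing mice. The 12 snoRNA host transcripts gave 705 to 2608 reads per 1000000 in the niche libraries and 2527 to 3926 in the myeloma libraries.

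Snord104 accounts for much of the endothelial sum. It held 21.3% to 73.1% of all snoRNA reads in healthy endothelial cells, with a median of 53%, and 10.5% to 23.4% in central marrow myeloma cells, with a median of 14.8%. The median coefficient of variation of snoRNAs above 1 RPKM was 1.39 to 2.17 in the niche groups, 0.958 in bone-lining and 0.651 in central marrow myeloma cells, against 0.427 to 0.644, 0.324 and 0.227 for the snoRNA hosts and 0.826 to 1.23, 0.563 and 0.383 for all genes above 1 RPKM.

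**Figure D2:**
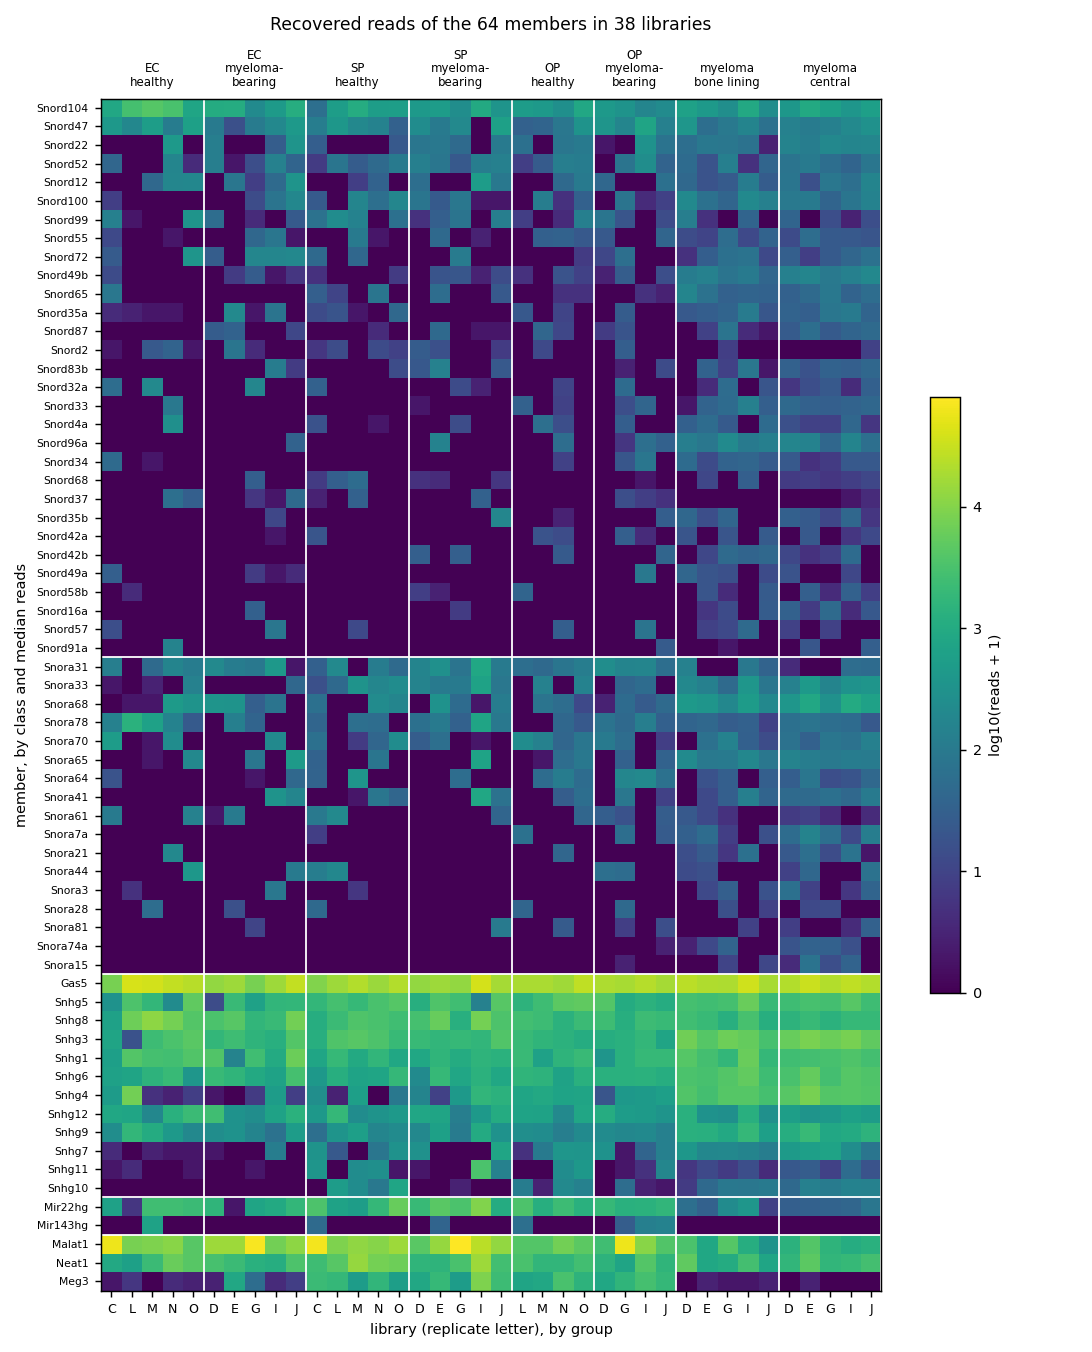
Heat map of the recovered reads of each of the 64 members (rows, ordered by class and median reads) in each of the 38 libraries (columns, ordered by group), coloured by log10(reads + 1). Snord104 has reads in 38 of 38 libraries, and the myeloma libraries at the right hold reads for more of the snoRNAs than the niche libraries do.

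Among box C/D snoRNAs, Snord104 had the most reads, with 60 to 4210 reads in every library. Its level in healthy endothelial cells was 689, 2293, 2464, 2012 and 440 RPKM in libraries C, L, M, N and O. In healthy stromal progenitors it was 41.7, 442, 703, 338 and 341 RPKM, with library C far below the others. The 4 healthy osteoprogenitor libraries held 561, 492, 230 and 662 RPKM, within the range of the stromal progenitors. Bone-lining myeloma cells held 157 to 501 RPKM and central marrow cells 256 to 476 RPKM, and these ranges overlapped.

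Snord47, which lies in Gas5, was the box C/D snoRNA next in order, with reads in 37 of 38 libraries and a median of 154.5 reads. Snord22 in Snhg1, Snord52 in 1110038B12Rik and Snord12 in 1500012F01Rik followed with median reads of 61.5, 49.5 and 38.5. Among box H/ACA snoRNAs, Snora31 (in Tpt1), Snora33 (in Rps12), Snora68, Snora78 (in Snhg9) and Snora70 (in Rpl10) had the highest medians, between 37 and 86 reads. The other snoRNAs were at 0 in many libraries. Snord91a had reads in 5 libraries, Snora15 in 7 and Snora74a in 8.

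Of the hosts, Gas5, the growth-arrest transcript that holds several box C/D snoRNAs, was among the most abundant in every group. Its mean was 523 ± 266 RPKM (SD, n = 5) in healthy and 315 ± 92.6 (n = 5) in myeloma-bearing endothelial cells, 319 ± 87.3 (n = 5) and 384 ± 145 (n = 5) in stromal progenitors, and 538 ± 94.6 (n = 4) and 578 ± 162 (n = 4) in osteoprogenitors. It was 485 ± 103 RPKM (n = 5) in bone-lining and 445 ± 57.9 (n = 5) in central marrow myeloma cells. Snhg1, Snhg3, Snhg5, Snhg6, Snhg8, Snhg9 and Snhg12 also had reads in all 38 libraries. Snhg8 stood highest in healthy endothelial cells, at 368 ± 237 RPKM (n = 5), and lowest in central marrow myeloma cells, at 103 ± 16.1 (n = 5). Snhg1 ranged in mean from 131 ± 70.1 (n = 5) in healthy stromal progenitors to 347 ± 128 (n = 5) in bone-lining myeloma cells. Snhg5 ranged from 66.5 ± 53.5 (n = 5) in endothelial cells of myeloma-bearing mice to 215 ± 81.2 (n = 4) in healthy osteoprogenitors, and Snhg12 from 37.2 ± 11 (n = 5) in central marrow myeloma cells to 85.4 ± 80.5 (n = 5) in endothelial cells of myeloma-bearing mice. For these 4, neighbouring groups in the order differed by less than the larger of their SDs.

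Snhg4, Snhg7, Snhg10 and Snhg11 were at or near 0 in some groups. Snhg11 had a median of 3 reads over the 38 libraries, and its highest value was 22.6 RPKM (3301 reads) in stromal progenitor library I of myeloma-bearing mice. Mir143hg, the host of miR-143 and miR-145, had reads in 7 of 38 libraries and 0 reads in all 10 myeloma libraries. It was at 0 in 10 of the 14 niche libraries of myeloma-bearing mice as well, with 1.05 to 8.89 RPKM in the other 4, and it did not pass the test against bone-lining myeloma cells. Neat1, the scaffold RNA of paraspeckles, ranged in mean from 30.5 ± 21.4 RPKM (n = 5) in bone-lining myeloma cells to 105 ± 60.3 (n = 5) in healthy stromal progenitors.

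**Figure D3:**
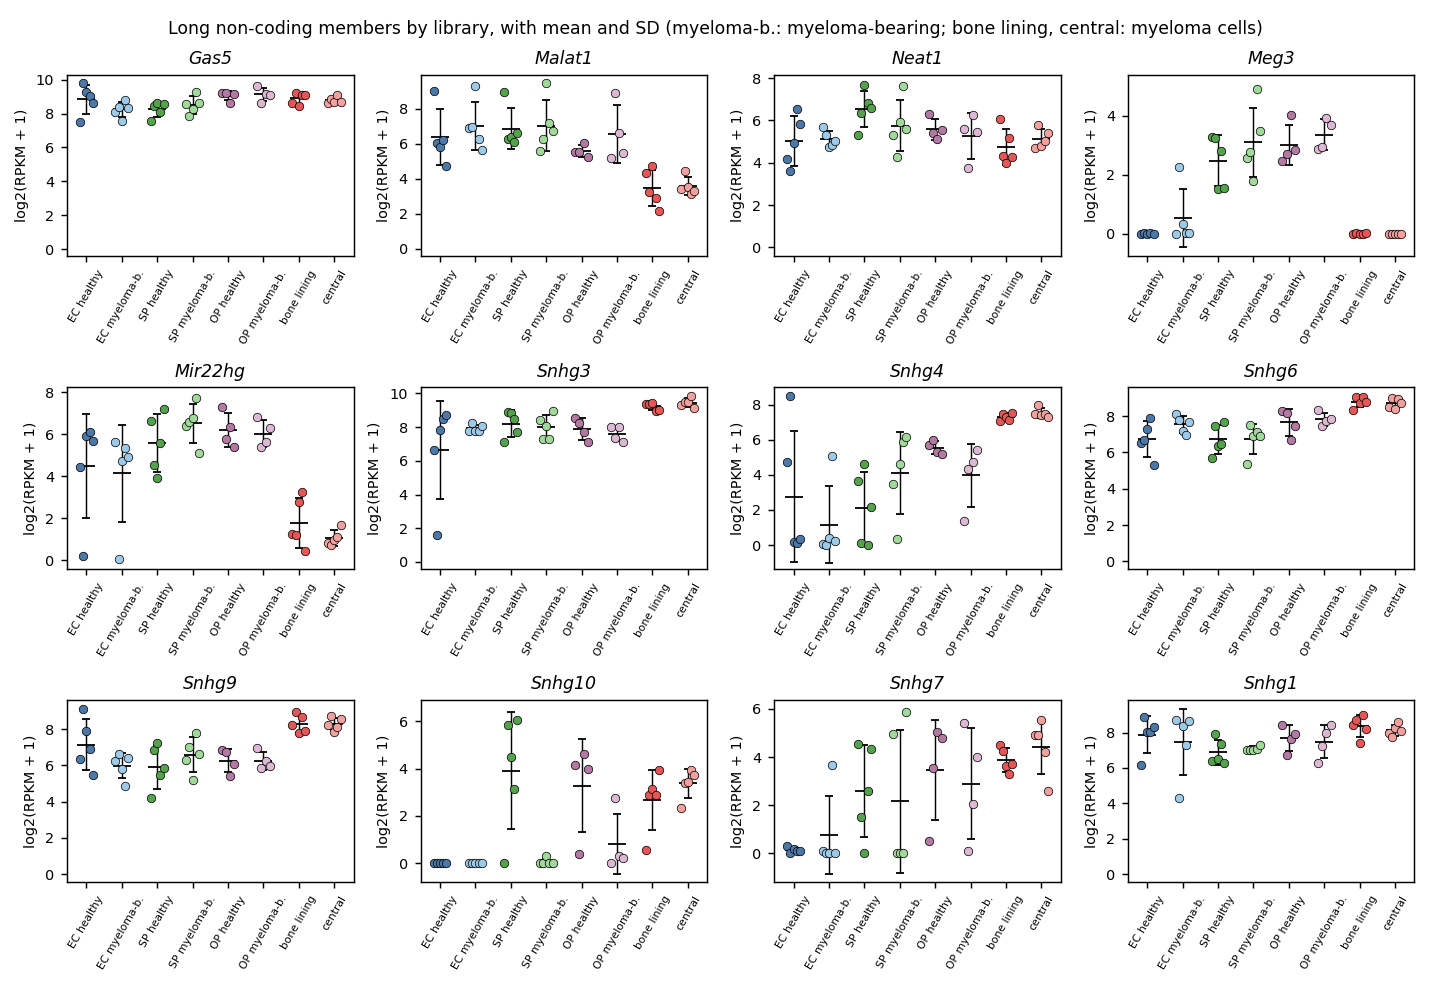
Levels of 12 long transcripts as log2(RPKM + 1) in each library by group, with points for libraries, horizontal lines for group means and error bars for the SD. The means of Malat1 and Mir22hg are lowest and those of Snhg3, Snhg4 and Snhg6 highest in the 2 myeloma groups, and Meg3 is near 0 in healthy endothelial and in myeloma cells.

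To see how myeloma cells differed from the cells around them, bone-lining myeloma cells were compared with the mean of the 3 niche cell types of the same myeloma-bearing condition. All differences are of mean log2(RPKM + 1), and a gene was called at an adjusted p below 0.1 with an absolute log2 difference above 1. Of 60 members tested, 22 were called higher and 5 lower in myeloma cells, 27 in all, where 40.0% of all 11363 genes were called, 20.1% higher and 19.8% lower. By class, 17 snoRNAs were higher and 2 lower of 44 tested, and 5 snoRNA hosts were higher and 0 lower of 11 tested. The median difference was 1.27 over the members tested and 0.15 over all genes. The filter on low values let 8 members in through the myeloma libraries alone, all 8 of them called, and 11 through the niche libraries alone, 3 of them called. The 8 were Snord4a, Snord33, Snord34, Snord35a, Snord42b, Snora7a, Snora21 and Snhg10, and the 3 were Snord37, Snora31 and Meg3. Each of these could be tested only because of the group where it was high, so its adjusted p below describes it and lends its direction no support. Scaling to plain library totals moved the median of all genes up by 0.47 and the share of calls that were higher from 50.4% to 64.4%, with 28 members higher and 5 lower. The called directions below were the same under that scaling.

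Snord65, one of the 3 snoRNAs in the non-coding gene 2410006H16Rik, had levels of 122, 87, 24.8, 26.1 and 44.6 RPKM in bone-lining myeloma libraries D, E, G, I and J. It was at 0 in 10 of the 14 niche libraries, and the other 4 held 37.9, 22.8, 4.41 and 2.86 RPKM. The highest niche library, stromal progenitor E at 37.9 RPKM, lay within the range of the myeloma libraries, and the other 13 lay below the lowest of them. The log2 difference was 4.65 ± 0.79 (SE; adjusted p = 9.26e-05).

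Snord49b, from the same host, had 74.4, 161, 52.5, 61 and 48.7 RPKM in the bone-lining myeloma libraries. The 14 niche libraries held between 0 and 25.3 RPKM with a median of 4.21. The groups did not overlap, and the log2 difference was 3.74 ± 0.82 (adjusted p = 0.0012). Snord49a, the remaining snoRNA of that host, was at 0 in 10 of 14 niche libraries but held 92.3 RPKM in osteoprogenitor library I, above all bone-lining myeloma libraries (27, 21.7, 10.7, 0 and 14.5 RPKM). Its difference of 2.47 ± 0.88 (adjusted p = 0.0348) was no longer called without replicate letter D, E, G or J, with adjusted p-values of 0.191, 0.137, 0.101 and 0.143.

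Snord96a lies in Gnb2l1, the gene for the ribosomal scaffold protein RACK1, and had the highest estimate. Bone-lining myeloma libraries held 66.7, 81.9, 130, 53.5 and 127 RPKM. Among niche libraries 9 of 14 were at 0, and the other 5 held 12.8, 73.6, 3.53, 49.8 and 34.9 RPKM. Stromal progenitor library E, at 73.6 RPKM, lay within the range of the myeloma cells. The log2 difference was 4.70 ± 0.98 (adjusted p = 0.000798).

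The Rpl13a gene, for a protein of the large ribosomal subunit, holds Snord32a, Snord33, Snord34 and Snord35a. Snord34 had 31.5, 12.9, 23.4, 24.4 and 28.4 RPKM in the bone-lining myeloma libraries and was at 0 in 12 of 14 niche libraries, but osteoprogenitor libraries G and I held 16.5 and 81 RPKM. Its log2 difference was 3.72 ± 0.72 (adjusted p = 0.000361). Snord33 had 0.497, 31.1, 26.9, 66 and 26.5 RPKM in myeloma cells and was at 0 in 11 of 14 niche libraries, with a difference of 3.49 ± 0.77 (adjusted p = 0.00122). Snord33, Snord34 and Snord35a all passed the filter through the myeloma libraries alone. Thus 1 of the 5 myeloma libraries, D, was at the level of most niche libraries for Snord33. Snord35a had 10.1, 22.3, 18.8, 47.2 and 16.8 RPKM and was at 0 in 10 of 14 niche libraries, while endothelial libraries E and I held 125 and 64.4 RPKM. Its difference was 3.16 ± 0.97 (adjusted p = 0.0153) on the log2 scale, although the means, 23 and 14 RPKM, lay much closer. Snord32a was not called, with 0, 2.62, 29.4, 0 and 17.6 RPKM in myeloma cells and up to 136 RPKM in the niche.

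Of the other box C/D snoRNAs called higher, Snord4a had a mean of 28.3 RPKM in myeloma and 2.55 in niche cells, a log2 difference of 3.35 ± 0.85 (adjusted p = 0.00407), and Snord42b and Snord42a from the same host, Rpl23a, had differences of 2.80 ± 1.07 and 2.06 ± 0.82. Snord42b was no longer called without letter E, G or I (adjusted p = 0.12, 0.137 and 0.197), and Snord42a without D or J (0.263 and 0.346) or with voom-limma on recovered reads (0.12). Snord4a and Snord42a lie opposite the gene Tlcd1, from which counting without strand cannot tell them apart. Snord100 in Rps12, the gene for a protein of the small ribosomal subunit, had a mean of 99.4 against 29.6 RPKM and a difference of 3.17 ± 1.15 (adjusted p = 0.0381). Snord58b in Rpl17 had 6.15 against 0.36 RPKM and a difference of 1.60 ± 0.57 (adjusted p = 0.0348), not called with voom-limma on recovered reads (adjusted p = 0.119). Its length in the deposited table was 109 bases against 55 in RefSeq, so whether its reads came from Rpl17 alone cannot be told.

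Among box H/ACA snoRNAs, 5 were higher. Snora21 in Rpl23 was at 0 in all 14 niche libraries and had 4.46, 13.8, 1.72, 19.3 and 0 RPKM in the bone-lining myeloma cells, which is at least 5.6-fold higher at a lower limit of 3 reads per library, and at least 3.56-fold without library I (adjusted p = 0.000335). It is 1 of the 8 members that passed the filter through the myeloma libraries alone. Such limits cover counting error only. Snora33 in Rps12 had a mean of 78.5 against 39.1 RPKM and a log2 difference of 2.94 ± 0.82 (adjusted p = 0.00833). Snora68 had 174 against 52.1 RPKM and 3.10 ± 1.12 (adjusted p = 0.0371, and 0.108 without letter I). For Snora65 in Rpl12, 9 of 14 niche libraries were at 0, yet stromal progenitor library I reached 239 RPKM against 37 to 76 RPKM in myeloma cells, and the difference of 3.77 ± 1.27 (adjusted p = 0.0262) was not called without letter D (adjusted p = 0.127). Snora7a in Rpl32 had a difference of 1.95 ± 0.72 (adjusted p = 0.0398), not called without letter D or E (adjusted p = 0.168 and 0.193).

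The 2 snoRNAs that were lower in myeloma cells were Snora31 and Snord37. Snora31, in the gene Tpt1 for translationally controlled tumour protein, had 51.3, 0, 0, 31.9 and 23.4 RPKM in the bone-lining myeloma libraries and 0.259 to 299 RPKM, median 86.5, in the niche. The groups overlapped, and the log2 difference of -3.06 ± 1.02 (adjusted p = 0.0246) was not called without letter E or G (adjusted p = 0.145 for both). Snord37, in the elongation factor gene Eef2, was at 0 in all 5 bone-lining libraries and in 7 of 14 niche libraries, at least 2.06-fold lower at 3 reads per library and 1.51-fold without endothelial library J. Its difference of -1.73 ± 0.80 (adjusted p = 0.0999) was lost under 8 of 12 alternatives, and without letter E, G, I or J the adjusted p was 0.121, 0.236, 0.19 and 0.193.

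Of the hosts, Snhg4, whose RefSeq span holds the position of Snora74a, was at 133, 173, 156, 140 and 185 RPKM in the bone-lining myeloma libraries and between 0 and 68.9 RPKM, median 14.6, in the niche. The groups did not overlap, with a log2 difference of 4.22 ± 0.88 (adjusted p = 0.000753). Snhg3 had 655, 658, 676, 497 and 514 RPKM in myeloma cells and 138 to 491 RPKM in niche cells, a difference of 1.38 ± 0.27 (adjusted p = 0.000438). Snhg6, host of Snord87, had 324, 529, 421, 526 and 446 RPKM and 39.7 to 320 RPKM, a difference of 1.42 ± 0.31 (adjusted p = 0.00125). For both, the lowest myeloma library lay just above the highest niche library. Snhg9, host of Snora78, was 328 ± 115 RPKM (n = 5) in bone-lining myeloma cells and 28.1 to 219 RPKM in the niche, with the lowest myeloma library at 217 RPKM, and its difference was 2.02 ± 0.39 (adjusted p = 0.000363). Snhg10 had 0.462, 6.3, 7.76, 6.38 and 14.1 RPKM and was at 0 in 10 of 14 niche libraries, a difference of 2.38 ± 0.46 (adjusted p = 0.000392), having passed the filter through the myeloma libraries alone. Snhg9 lies opposite Rps2 and Snhg6 opposite Mcmdc2, and counting was without strand.

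Of the remaining long transcripts, Mir22hg, the host of miR-22, had 1.41, 1.32, 5.77, 8.55 and 0.339 RPKM in the bone-lining myeloma libraries and a median of 49.3 RPKM in the niche, where endothelial library E alone was near 0, at 0.0315 RPKM. Its log2 difference was -3.79 ± 0.72 (adjusted p = 0.000301). Malat1, an abundant nuclear RNA of speckles, had 19.2, 8.35, 25.6, 6.44 and 3.51 RPKM in myeloma cells against 35.7 to 695 RPKM in the niche, without overlap, and a difference of -3.39 ± 0.67 (adjusted p = 0.000447). With voom-limma on recovered reads the Malat1 estimate was -3.35 and was not called (adjusted p = 0.227). Meg3, an imprinted RNA of the maternal chromosome, was at or below 0.0116 RPKM in myeloma cells and had a median of 5.38 RPKM in the niche, a difference of -2.32 ± 0.50 (adjusted p = 0.00102). The groups overlapped, since 4 of the 5 endothelial libraries held only 0.0083 to 0.271 RPKM of Meg3, and the high values were those of stromal progenitors and osteoprogenitors.

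The microRNA carried by Mir22hg was not itself measured. Its mature sequences in RefSeq on GRCm38.p6 are shown because that host was the lowest of the members in myeloma cells by log2 difference, with the seed, bases 2 to 8, in capitals.
mmu-miR-22-5p (chr11:75463734-75463755, plus strand): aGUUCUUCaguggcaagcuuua
mmu-miR-22-3p (chr11:75463772-75463793, plus strand): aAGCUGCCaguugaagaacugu

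**Figure D4:**
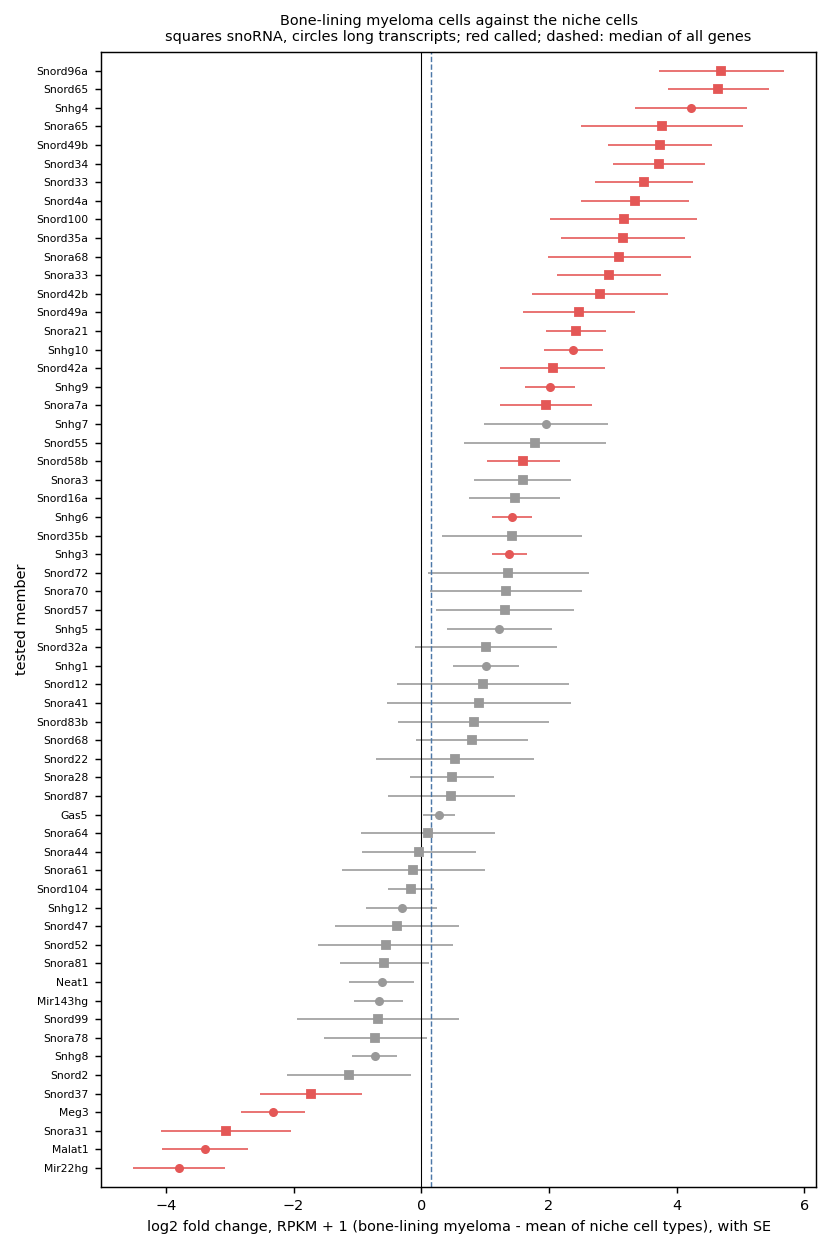
Log2 difference with its standard error for each member tested between bone-lining myeloma cells and the mean of the niche cell types of myeloma-bearing mice, with called members marked. The called members run from -3.79 (Mir22hg) to 4.70 (Snord96a), and 22 of the 27 lie above 0.

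Hosts and guests were set side by side in this comparison. Of the 43 snoRNAs tested whose host is in the table, 19 were called, and for 16 of these the host was called too, where 40.0% of all genes were called. These 16 lie in 9 hosts, so that 1 host call counts for up to 3 guests. For 11 further snoRNAs the host was called and the snoRNA was not. The host was thus called for most of the 43 pairs, a larger share than the 40.0% of all genes. Among the 16, Snord4a, Snord33, Snord34, Snord35a, Snord42b and Snora21 passed the filter through the myeloma libraries alone. Their calls lend the count no support. The number with both called was 10 to 13 when 1 replicate letter was left out, the lowest without letter G. Rpl13a had a mean of 643 RPKM in myeloma and 219 in niche cells (log2 difference 1.59 ± 0.26), 2410006H16Rik had 603 and 191 RPKM (1.93 ± 0.50), and Gnb2l1 had 1833 and 515 RPKM (1.88 ± 0.22). The estimates of Snord96a, Snord65, Snord34 and Snord33 were larger than those of their hosts, but the difference between guest and host was not tested. Rps12 (1.89 ± 0.65) was no longer called without letter J (adjusted p = 0.11), and Rps12, Rpl23a and Tpt1 had few counted reads. Genes for ribosomal proteins have processed copies elsewhere in the genome, and reads with several equal positions were not counted, so host levels of this kind are uncertain. Tpt1 itself had 21 and 25.7 RPKM and was not called, unlike its guest Snora31, and Eef2 had 121 and 67.1 RPKM where Snord37 was lower.

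Between the bone lining and the central marrow, no member passed the test in myeloma cells. None of 57 members tested was called, where 0.203% of 8857 genes were called, 0.147% higher and 0.0565% lower at the bone lining, and voom-limma on recovered reads also called 0. At an unadjusted p below 0.05 there were 6 of 57 members (10.5%), against 5.98% of all genes. The largest estimates were Snord49a (1.97 ± 0.92), Snord34 (1.30 ± 0.48) and Snord42b (1.27) on the side of the bone lining, and Snord87 (-2.34 ± 0.76), Snora7a (-1.79 ± 0.77) and Snord22 (-1.76 ± 0.61) on that of the central marrow. Snord87 held 0, 7.66, 46.5, 1.59 and 1.01 RPKM in bone-lining libraries D, E, G, I and J and 15.8, 29, 15.7, 25.8 and 31.1 RPKM in the central marrow. Only library G of the bone lining lay above the central marrow range, and without letter G the difference was -3.31 and was called (adjusted p = 0.079). Snord22 held 18.8, 51.2, 30.8, 22.1 and 1.19 RPKM at the bone lining and 57.5, 35.5, 74.3, 67.4 and 66.7 RPKM in the central marrow, and the groups overlapped in 1 library each.

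Healthy endothelial cells were then compared with the mean of healthy stromal progenitors and osteoprogenitors. Of 41 members tested, 6 were called, 2 higher and 4 lower in endothelial cells, where 21.6% of 9952 genes were called, 7.95% higher and 13.7% lower. At an unadjusted p below 0.05 there were 11 of 41 members (26.8%), against 29.0% of all genes. The median difference was -0.94 over the members and -0.31 over all genes, and plain library totals moved the latter up by 0.14. The filter let in 21 members through the stromal progenitors and osteoprogenitors alone, and all 4 members called lower were among them. Each of these 4 could be tested only because of the cells where it was high. Its adjusted p below describes it and lends its direction no support.

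Meg3 had 1 to 5 reads or none in each healthy endothelial library, at most 0.022 RPKM, against 1.89 to 8.62 RPKM in stromal progenitors and 4.53 to 15.1 RPKM in osteoprogenitors. The groups did not overlap, and the log2 difference was -2.73 ± 0.59 (adjusted p = 0.00301). Snhg10 was at 0 in all 5 endothelial libraries and reached 64.5 RPKM in stromal progenitors and 23.6 RPKM in osteoprogenitors, so it was at least 78.9-fold lower at 3 reads per library (adjusted p = 0.0151). Stromal progenitor library C was also at 0. Snhg7 held at most 0.233 RPKM in endothelial cells and 0 to 31.5 RPKM in the other cells, with a difference of -2.91 ± 0.88 (adjusted p = 0.0289) that was not called without letter N or O (adjusted p = 0.117 and 0.115). Snord100 was at 0 in 4 of 5 endothelial libraries and reached 137 RPKM in osteoprogenitor library M. Its difference of -3.54 ± 1.21 (adjusted p = 0.054) was not called without letter M, N or O (adjusted p = 0.221, 0.144 and 0.203) or without the filter (adjusted p = 0.115).

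The 2 members that were higher in healthy endothelial cells were snoRNAs. Snora78 had 52.2, 502, 171, 45.3 and 6.3 RPKM in endothelial libraries C, L, M, N and O, against 12.6, 0, 18, 16.3 and 0 RPKM in stromal progenitors and 0, 0, 16.5 and 7.97 RPKM in osteoprogenitors. Library O of the endothelial cells overlapped the other cell types. The log2 difference was 3.98 ± 1.10 (adjusted p = 0.018), and without letter L it was 2.66 and was not called (adjusted p = 0.134). Snora78 and its host Snhg9 lie opposite Rps2, and counting was without strand. Snord104, with the values given above, had a mean of 1579 RPKM against 430 and a difference of 1.86 ± 0.58 (adjusted p = 0.0331). It was not called without letter L or N (adjusted p = 0.103 and 0.159) or with voom-limma on recovered reads (adjusted p = 0.114).

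Healthy osteoprogenitors and healthy stromal progenitors differed in 1 of 36 members tested, where 3.58% of 8707 genes were called, 1.69% higher and 1.90% lower in osteoprogenitors. Snhg4 had 51.7, 62.5, 38.2 and 34.9 RPKM in osteoprogenitor libraries L, M, N and O and 11.6, 0.102, 23.3, 0 and 3.58 RPKM in stromal progenitor libraries C, L, M, N and O. The groups did not overlap, and the log2 difference was 3.42 ± 0.97 (adjusted p = 0.0891). Snhg4 passed the filter on low values through the osteoprogenitors alone, the group where it was high. It was not called without letter L, M, N or O, where the adjusted p lay between 0.117 and 0.299, nor with a pseudocount of 0.1 (0.201), without the filter (0.23), with all 38 libraries in 1 fit (0.159) or with voom-limma (0.183). With plain library totals, which moved the median of all genes up by 0.19 and the share of calls that were higher from 47.1% to 60.6%, 2 members were called. Snhg4 held 133 RPKM or more in every bone-lining myeloma library, above all 4 healthy osteoprogenitor libraries.

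The central question of the study was what myeloma changes in the niche cells. No member was called in endothelial cells (27 tested, 0% of 7880 genes called), in stromal progenitors (34 tested, 0% of 8747 genes called) or in osteoprogenitors (39 tested, 0.0115% of 8664 genes called). The study, with its own voom-limma fit and the same thresholds, reported many more genes in each of these cell types. The lack of calls here therefore does not show that myeloma left the members unchanged. At an unadjusted p below 0.05 there were 2, 4 and 4 members (7.41%, 11.8% and 10.3%), against 5.25%, 5.00% and 4.87% of all genes, and voom-limma on recovered reads called 0 in all 3. In no cell type did all myeloma-bearing libraries of a member lie above, or all below, the healthy ones, where 0.211% to 1.24% of all genes did so in one direction. An F test for a change that differed between the 3 cell types called 0 of 57 members and 0% of 11713 genes, with 3 members (5.26%) and 4.88% of all genes at an unadjusted p below 0.05.

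The filter required a value over 1 RPKM in no fewer than 4 libraries of a comparison, and 37, 30 and 25 of the 64 members were not tested in endothelial cells, stromal progenitors and osteoprogenitors. By the value that ranked at place 4 from the top, Snord49a (1.2 RPKM) was just inside and Snora61 (0.864 RPKM) just outside in endothelial cells, Snhg11 (1.96) and Snord55 (0.587) in stromal progenitors, and Mir143hg (1.08) and Snhg11 (0.0429) in osteoprogenitors. The same pairs were Mir22hg (1.41) and Snora81 (0.92) between the myeloma groups, Snhg11 (2.13) and Snord4a (0.654) between osteoprogenitors and stromal progenitors, Snord37 (1.91) and Snord16a (0) for endothelial cells against both, and Mir143hg (1.05) and Snora74a (0.412) for myeloma against niche cells.

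Snora78 had the lowest p in that F test (unadjusted p = 0.000241, adjusted p = 0.379). In endothelial cells of myeloma-bearing mice it held 0, 45.6, 14.5, 0 and 0 RPKM in libraries D, E, G, I and J, against the healthy values of 6.3 to 502 RPKM, a log2 difference of -4.21 ± 1.33 (adjusted p = 0.821). In stromal progenitors the myeloma-bearing libraries held 29.4, 24.3, 12.6, 187 and 32.7 RPKM against 0 to 18 RPKM, a difference of 2.77 ± 1.03 (adjusted p = 0.874). In osteoprogenitors they held 46.5, 15.9, 49.6 and 16.1 RPKM against 0 to 16.5 RPKM, a difference of 3.03 ± 1.06 (adjusted p = 0.981). In each cell type the healthy and myeloma-bearing libraries overlapped. With all 38 libraries in 1 fit, Snora78 was called in endothelial cells (adjusted p = 0.0397) and in the F test (adjusted p = 0.0304). In each cell type Snora78 passed the filter only through the group where it was high. The p-values of these differences therefore lend their directions no support.

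Snhg10 had the next lowest p in the F test (unadjusted p = 0.0119, adjusted p = 0.916). In stromal progenitors it was 0, 57, 21.6, 7.79 and 64.5 RPKM in healthy libraries C, L, M, N and O and 0, 0, 0.226, 0 and 0 RPKM in the myeloma-bearing libraries, where 1 library held 2 reads. The overlap came from healthy library C. The log2 difference was -3.85 ± 1.07 (adjusted p = 0.811), and the single fit of all 38 libraries called it (adjusted p = 0.0227). Here Snhg10 passed the filter through the healthy libraries alone, where it was high, so these p-values lend its direction no support. In osteoprogenitors Snhg10 held 16.6, 0.299, 23.6 and 14.7 RPKM in healthy and 0, 5.65, 0.238 and 0.154 RPKM in myeloma-bearing mice, a difference of -2.46 ± 1.09 (adjusted p = 0.981). It was at 0 in all 10 endothelial libraries. Snord35a followed in that test (unadjusted p = 0.047, adjusted p = 1).

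The remaining members with the largest estimates did not pass the test either. In endothelial cells, Snord104 was 785, 833, 189, 487 and 461 RPKM in myeloma-bearing mice against 440 to 2464 RPKM in healthy mice, a log2 difference of -1.39 ± 0.52 (adjusted p = 0.872), and Snord47 had an estimate of -1.40. Snord72, Snord100 and Snord35a had estimates of 2.79, 2.72 and 1.97 there. In stromal progenitors Snord22 and Snord12 had estimates of 2.77 and 2.68, and Snora70 and Snord68 of -1.62 and -1.28. In osteoprogenitors Snora61 and Snord47 had estimates of 2.36 and 1.94, and Snora70 and Snhg4 of -2.47 and -1.57. None passed the test.

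Malat1 set some libraries apart. It was 512 RPKM in endothelial and 483 RPKM in stromal progenitor library C of healthy mice, and 631, 695 and 472 RPKM in endothelial, stromal progenitor and osteoprogenitor library G of myeloma-bearing mice, against 25.1 to 145 RPKM in the other niche libraries. Myeloma library G held 25.6 RPKM at the bone lining and 10.6 RPKM in the central marrow. With these libraries, the mean in endothelial cells was 147 ± 205 RPKM (n = 5) in healthy and 200 ± 243 (n = 5) in myeloma-bearing mice. Without C and G it was 55.1 ± 21.4 RPKM (n = 4) and 91.7 ± 35.7 (n = 4). In stromal progenitors the means went from 161 ± 180 (n = 5) and 213 ± 272 (n = 5) to 80.9 ± 12.4 (n = 4) and 92.8 ± 42.2 (n = 4). In osteoprogenitors, where healthy library C is lacking, they were 47.5 ± 11.7 (n = 4) and 163 ± 208 (n = 4), and 59.4 ± 34.1 (n = 3) without G. Malat1 remained called lower in myeloma cells without the niche libraries of letters C and G. Gas5 in those libraries was 179 to 393 RPKM, and what set them apart was not tested.

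Meg3 in endothelial library E of myeloma-bearing mice was 3.77 RPKM (876 reads), against 0.0083 to 0.271 RPKM in the other 4. Of the 8 markers of stromal progenitors, 4 were highest in library E. Prrx1, Pdgfrb and Dpt held 33.4, 17.9 and 6.83 RPKM there, against at most 4.87, 1.33 and 0.0455 RPKM in the other 4 libraries, and Ly6a, which the endothelial cells also express, was the remaining one. Dcn, another of these markers, was lower in library E (5.14 RPKM) than in the other 4 (6.17 to 54.4 RPKM). Without Ly6a the markers summed to 214 RPKM in library E and to 161 to 496 RPKM in the other 4. The part of these markers in the Meg3 value was not tested.

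The reads of guests and hosts within a library were compared for 5 of the 6 pairs with the most guest reads. Snord47 gave 0 to 52.4 reads per 1000 reads of Gas5, with group medians between 3.69 and 15.3. Snora78 gave 126 to 795 reads per 1000 of Snhg9 in healthy endothelial cells, with a median of 561. Myeloma cells gave 13.8 to 34.8 when sorted from the bone lining and 15 to 67.2 when sorted from central marrow, with medians of 27.8 and 50.5. The ranges of healthy endothelial and myeloma cells did not overlap. The median was 0 in endothelial cells of myeloma-bearing mice, 306 in stromal progenitors and 283 in osteoprogenitors of myeloma-bearing mice, and 104 and 52.3 in the healthy stromal progenitors and osteoprogenitors.

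Snord22 gave a median of 61.8 reads per 1000 of Snhg1 in central marrow cells, with a narrow range of 44.3 to 65, and 14.3 at the bone lining, with a range of 1.06 to 49. In healthy endothelial cells 4 of 5 libraries had no Snord22 read, and the other had 175 per 1000. Snora31 gave a median of 9.8 per 1000 of Tpt1 in central marrow and 145 at the bone lining, against 108 to 571 in the niche groups. Snora33 had more reads than Rps12 in 9 libraries and Snora31 more than Tpt1 in 3, and both hosts are among those whose reads are uncertain.

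A host with many reads did not always come with reads of its guest. Rpl4 had at least 1000 reads in all 38 libraries, and Snord16a was at 0 in 28 of them. Eef1b2 also reached 1000 reads in all 38 libraries, with Snora41 at 0 in 18. Eif4a2 did so with Snora81 at 0 in 29 and Snord2 at 0 in 21, while Gas5 did so with Snord47 at 0 in 1. Guests of one host therefore differed in how often they were seen, as among the snoRNAs of Rpl13a, where Snord35a was at 0 in 14 and Snord34 in 23 of 38 libraries.

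**Figure D5:**
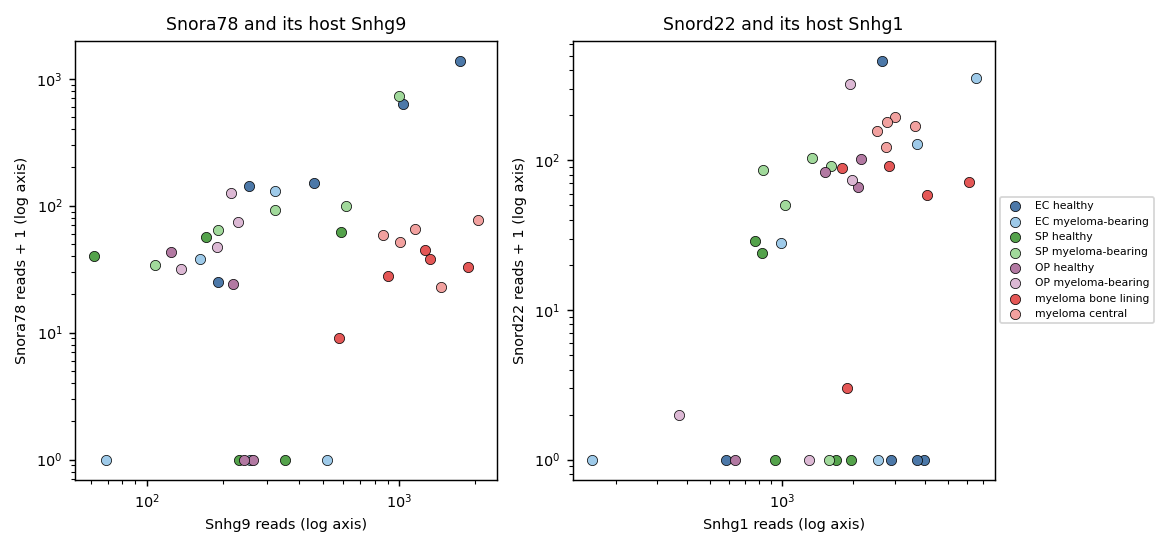
Reads of Snora78 plus 1 against reads of its host Snhg9 (left) and of Snord22 plus 1 against reads of its host Snhg1 (right), 1 point per library on log axes, coloured by group. Snora78 lies high against Snhg9 in healthy endothelial cells (median 561 per 1000 host reads) and low in bone-lining myeloma cells (median 27.8).

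Other genes of the pathway were counted in lists. Of 19 proteins of snoRNA-protein particles tested between bone-lining myeloma and niche cells, 11 were higher and 0 lower, with a median log2 difference of 1.77, against 0.15 over all genes, of which 20.1% were called higher and 19.8% lower. Nhp2, a core protein of box H/ACA particles, was higher by 3.67 (adjusted p = 0.000385) and Nop56, a core protein of box C/D particles, by 3.46 (adjusted p = 0.000354). Of 40 protein-coding snoRNA hosts, 27 were higher and 1 lower, median 1.55. Ncl, the nucleolar protein nucleolin, was higher by 2.46, and Eif4g2, a translation initiation factor, was the 1 lower gene (-1.36), which plain library totals left uncalled (-0.73). Of 31 genes of ribosomal RNA transcription and processing, 22 were higher and 0 lower, median 1.83, with Utp3 and Mphosph10 at 3.60 and 3.45. Of 14 translation mRNAs of the terminal oligopyrimidine class, 9 were higher and 0 lower, median 1.29, with Fau at 2.33.

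Of 9 microRNA processing genes, 4 were higher and 0 lower, median 0.90, and without letter I this count was 0 and without D, E or J it was 2. Of 19 factors of nonsense-mediated decay, the pathway that degrades many spliced host RNAs, 3 were higher and 0 lower, median 0.34, where 20.1% of all genes were higher. Of 19 paraspeckle and speckle proteins, 3 were higher and 1 lower, median 0.33, and Son, a speckle protein, was the lower one (-1.23), uncalled with plain library totals. With those totals 6 decay factors and 7 paraspeckle and speckle proteins were higher, where 32.7% of all genes were. Neither of the 2 imprinted genes of the Dlk1-Dio3 region in the table passed the filter in this comparison. In the comparisons of myeloma-bearing with healthy mice and of bone lining with central marrow, no gene of these lists was called. Healthy osteoprogenitors differed from stromal progenitors in 1 of 38 protein-coding hosts, Gnl3, a nucleolar GTPase that was higher by 2.63 (adjusted p = 0.0191), where 1.69% of all genes were higher. In healthy endothelial cells 1 of 18 decay factors and 1 of 14 translation mRNAs were higher and 1 of 28 genes of ribosomal RNA transcription and processing was lower, where 7.95% of all genes were higher and 13.7% lower.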

How the data were processed

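Libraries of 100 sorted cells were made from polyadenylated RNA by SmartSeq2 and sequenced as 50-base single-end reads. According to the study's methods and processing notes, reads were aligned with STAR 2.4.0 to GRCm38 (mm10) with UCSC transcripts and counted with featureCounts (Subread 1.4.5-p1) at default settings, that is without strand and without reads that have several positions or genes. The deposited table holds RPKM values, reads scaled to gene length and library size, made by the authors with edgeR after they dropped genes with low counts. The effective library sizes implied by the table differ from plain totals of reads.

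Whole reads were recovered from the steps of the RPKM values for all 13260 genes within a tolerance of 0.001 reads, and served for depth, detection and an alternative test. Library totals ran from 9735031 to 34883291 reads. Groups and replicate letters came from the sample labels, and 0 columns of the table lacked a sample. Comparisons used limma 3.58.1 in R 4.3.3 on log2(RPKM + 1) with an intensity trend, restricted to genes with a value over 1 RPKM in no fewer than 4 libraries of the comparison, fitted to the groups compared, with Benjamini-Hochberg adjustment over all genes tested. A gene was called at an adjusted p below 0.1 and an absolute log2 difference above 1, which follows the thresholds of the study. Comparisons of endothelial cells with both other types, and of myeloma cells with the niche, weighted cell types equally. The procedure was tested on simulated reads with large changes in genes well above the filter, which does not cover members with few reads. Fold limits against groups at 0 used 3 reads per library.

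The members, the gene lists and the markers were chosen with earlier results of these data known, and members were named by a fixed rule: those called, the largest estimates, the lowest F test p-values, the long transcripts, the snoRNAs with most reads, the members at the edge of the filter and 6 host and guest pairs, of which 1 is not reported here. Lists covered snoRNA-protein particles, protein-coding hosts, ribosomal RNA transcription and processing, translation mRNAs, microRNA processing, nonsense-mediated decay, paraspeckle and speckle proteins, Dlk1-Dio3 genes and cell type markers. snoRNA sequences and positions came from the GRCm38 genome and GENCODE M21, with 61 of 64 members matched by symbol, and microRNA sequences from RefSeq. Lengths in the table equalled RefSeq lengths for 44 of 47 snoRNAs. Alternatives were a pseudocount of 0.1, no filter, all 38 libraries in 1 fit, voom-limma on recovered reads, plain library totals, a replicate block and each replicate letter left out. After the data were seen, the fit without the niche libraries of letters C and G was added. Whether letters pair the libraries was checked by the correlation of same-letter deviations from group means, which ran from -0.0488 to 0.145 and exceeded 0.1 in every pair for no 2 groups.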

Additional observations from a re-analysis of the deposited data

Results flagged for a closer look

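Among groups of 4 or 5 libraries, a library was set apart where its gap to the nearest other, on the scale of log2(RPKM + 1), passed the 95% limit of Dixon's test. This was so in 33 of 211 groups tested over 27 members. In 10 of the 33 all other libraries of the group were at 0, where any library with a read passes that limit, and the other 23 came from 201 groups, where chance gives about 1 in 20 for values with few zeros.

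Among hosts, Gas5 was 397 RPKM in healthy osteoprogenitor library N against 580 to 589 in the others. Snhg1 was 159 RPKM in stromal progenitor library J of myeloma-bearing mice against 128 to 133. Snhg4 was 33.1 RPKM in endothelial library I of myeloma-bearing mice against 0 to 0.32, and Snhg7 in the same library was 11.9 RPKM against 0 to 0.0722. Snhg5 was 0.689 RPKM in endothelial library D and 5.64 RPKM in stromal progenitor library I of myeloma-bearing mice, against at least 38.8 and 85 in the others, and 217 RPKM in central marrow myeloma library I against 112 to 135.

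Snhg10 was 0.226 RPKM in stromal progenitor library G and 5.65 RPKM in osteoprogenitor library G of myeloma-bearing mice, and 0.299 RPKM in healthy osteoprogenitor library M against 14.7 to 23.6. Snhg11 was 22.6 RPKM in stromal progenitor library I, 2.5 RPKM in osteoprogenitor library J and, from 1 read, 0.0105 RPKM in endothelial library G of myeloma-bearing mice. Snhg12 was 182 RPKM in healthy stromal progenitor library L against 18.2 to 35.2, 21.1 RPKM in healthy osteoprogenitor library N against 72.2 to 90.1, and 174 RPKM in osteoprogenitor library D of myeloma-bearing mice against 46 to 49.2.

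Malat1 was 483 RPKM in healthy stromal progenitor library C against 68.3 to 97.8. Meg3 was 3.77 RPKM in endothelial library E of myeloma-bearing mice and, from 2 reads, 0.00573 RPKM in central marrow myeloma library E. Mir22hg was 0.161 RPKM in healthy endothelial library L against 20.7 to 67.6 and 0.0315 RPKM in endothelial library E of myeloma-bearing mice against 25.3 to 49.2. Mir143hg was above 0 in a single library of 4 groups, at 20.9 RPKM in healthy endothelial library M, 1.83 RPKM in healthy stromal progenitor library C, 1.05 RPKM in stromal progenitor library E of myeloma-bearing mice and 3.58 RPKM in healthy osteoprogenitor library L.

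Among snoRNAs, Snord104 was 41.7 RPKM in healthy stromal progenitor library C against 338 to 703. Snord22 was 173 RPKM in healthy endothelial library N with the other 4 at 0, and 0 in stromal progenitor library I of myeloma-bearing mice and in healthy osteoprogenitor library M, against at least 23.3 and 40.4 in the others. Snora33 was 56.5 RPKM in healthy endothelial library O and 11.9 RPKM in endothelial library J of myeloma-bearing mice. Snora70 was 121 RPKM in endothelial library I of myeloma-bearing mice with the other 4 at 0. Snora78 was 6.57 RPKM in central marrow myeloma library J against 16.3 to 19.3.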

How the results depend on the processing

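The counts of members called were the same, or within 1.5 times, under most alternatives. With all 38 libraries in 1 fit, 1 member was called in each of the comparisons of myeloma-bearing with healthy endothelial cells (Snora78) and stromal progenitors (Snhg10) and in the test for a change that differs between cell types (Snora78), in place of 0, and 0 between osteoprogenitors and stromal progenitors in place of 1. The latter count was also 0 with a pseudocount of 0.1, without the filter and with voom-limma, 2 with plain library totals, and 0 to 1 with 1 letter left out. Between bone-lining and central marrow myeloma cells 0 to 1 members were called with 1 letter left out, with 1 (Snord87) without letter G. The counts with 1 letter left out were 4 to 8 for endothelial cells against stromal progenitors and osteoprogenitors (6 with all) and 19 to 24 for myeloma against niche cells (27 with all). In the latter, nonsense-mediated decay factors called higher were 6 and paraspeckle and speckle proteins 7 with plain library totals, in place of 3 and 3, microRNA processing genes 0 to 4 and snoRNAs called with a called host 10 to 13 with 1 letter left out, in place of 4 and 16. Of 34 calls of named members, 19 were kept under every alternative run, 17 of the 27 between myeloma and niche cells, 2 of 6 and 0 of 1 in the other cell type comparisons, and no estimate of a named member changed sign. The causes of these changes were not tested. Snora78 in endothelial cells and Snhg10 in stromal progenitors had passed the filter through the healthy libraries alone, so their gained calls lend no direction support.

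With the replicate letter as a block, as if libraries were paired, 0 members were called between the myeloma groups, 1 between osteoprogenitors and stromal progenitors, 7 for endothelial cells, 29 for myeloma against niche cells and 0 in the test between cell types. Correlations of same-letter deviations reached 0.145, against 0.117 for other letters, so this check could not decide whether letters pair the libraries. Malat1 was high in all niche libraries of letters C and G. No paired analysis was possible for myeloma-bearing against healthy mice because these share no letter. Plain library totals moved group means of named members by less than 1 SD in 336 of 376 cases. Many snoRNA values rest on a few reads from 100 cells. Where 1 read was worth near 1 RPKM, absence could not be told from sampling.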
